A study of Mus musculus with 14 samples.

Results

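Gene expression in mouse liver 36 h after partial hepatectomy was compared with expression in normal mouse liver, on the 2 arrays labelled as 36 h and the 2 labelled as normal liver, 4 of the 14 arrays of a time course of liver regeneration. In partial hepatectomy some lobes are cut away by surgery, and the remaining tissue grows back to the original size. The other 10 arrays were of livers 4, 8, 12, 48 and 72 h after the operation, 2 arrays per time. Total RNA labelled with biotin was hybridised to 1-colour arrays that read most genes with 1 or more probe sets. Each RNA extraction took the pooled livers of 4 to 6 mice, per the study's design text. Strain, sex and age of the mice are not in the labels used here, nor is a sham operation, so operated livers were set against unoperated ones. Whether a time's 2 arrays came from separate pools of mice is not in the labels either, and p-values therefore measure only the spread between arrays. The comparison asks which transcripts differ from normal liver at a time when hepatocytes of the mouse replicate their DNA.

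Hepatocytes of an adult liver are mostly quiescent. After hepatectomy, cytokines and growth factors bring them from quiescence through G1, when cyclin D1 accumulates, into S phase, when origins loaded with the MCM helicase fire and the genome is copied. Cdk1 with cyclins A and B then drives mitosis, and the anaphase-promoting complex ends it by marking cyclins and securin for destruction, while the organ continues to supply plasma proteins, bile and metabolic products.

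Intensities are the deposited values, scaled so that the trimmed mean of each array was between 500.19 and 500.284. Values are given in the order array 1, array 2 within each group. Differences are on the scale of log2(intensity + 57), where 1 is a 2-fold change of a bright transcript, with the standard error (SE) of a linear model in limma on 2 arrays per group. The added 57 understates the change of dim transcripts. Over the 13576 probe sets bright enough to be tested, the replicates correlated on this scale with r = 0.948 at 36 h and 0.952 in normal liver. The 36 h arrays correlated with the normal arrays with r between 0.89 and 0.928. The 9 tested hepatocyte markers, such as albumin, were bright in all 4 arrays, with summed intensities of 172789 and 176929 at 36 h, against 229717 and 272813 in normal liver.

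The second 36 h array stood apart in several ways. The ratio of the 5′ to the 3′ probe set of pyruvate carboxylase, a control for the length of the labelled RNA, was 0.584 and 0.105 at 36 h, against 0.377 and 0.318 in normal liver. The second arrays of 8, 12 and 72 h had similarly low ratios. The hybridisation controls had mean intensities of 5939.66 and 3132.4 at 36 h, against 6917.97 and 10493.6 in normal liver. They were low in the second arrays of 8, 12 and 72 h too (3369.36, 4129.56 and 4172.96). Pancreatic acinar transcripts, 22 genes of digestive enzymes and related secreted proteins, had median intensities of 26.65 and 1650.6 at 36 h, against 60.5 and 31.05 in normal liver. Skeletal muscle transcripts, 18 genes, had medians of 63.5 and 220.8 at 36 h, against 104.35 and 37.8 in normal liver. Of these 4 arrays only the second 36 h array was thus bright in acinar genes, which were brighter still in both arrays of 8 h (15988.4 and 15536.6), and it is seen in the carboxypeptidase Cpa1, with 7 and 4040 at 36 h, against 5.7 and 2.2 in normal liver. Of the 22 acinar genes, 0 rose in the test and 1, the amylase Amy1, fell, and of the 18 muscle genes 0 rose and 0 fell, while with the first 36 h array left out 19 acinar and 5 muscle genes passed as higher. Amy1 did not follow the acinar median, with 2861 and 3404 in normal liver, 1244 and 1053 at 36 h and 1827 and 2106 at 8 h. The part of RNA length, of the lower hybridisation controls and of the acinar and muscle transcripts in the results that follow was not tested beyond the values given with and without the arrays.

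**Figure D1:**
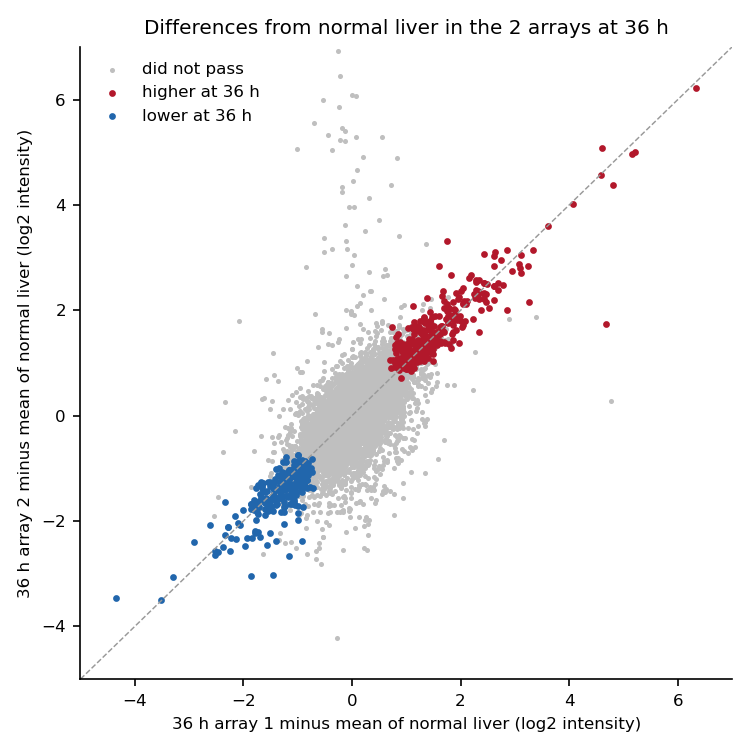
Each point is a probe set, with its difference from the mean of normal liver in the first 36 h array on the horizontal axis and in the second on the vertical axis, both as log2 intensity. Probe sets that passed the limma test on these same arrays are coloured (310 higher, 256 lower). Most of them lie near the diagonal, which the test itself favours. The grey points high on the vertical axis alone are transcripts bright only in the second array.

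Of 13576 probe sets tested, 566 differed between 36 h and normal liver at a limma adjusted p under 0.05, which is 4.17%. Of these, 310 (2.28%) were higher and 256 (1.89%) lower at 36 h. In all 566, and in 6367 of the 13576 tested, the 36 h arrays did not overlap the normal arrays. All 566 thus had the same sign in both 36 h arrays. The calls come from these same arrays, so the separation is no independent support, here or for the called genes named below. Counted by the brightest probe set of each of 8453 genes, 204 genes (2.41%) rose and 187 (2.21%) fell, 4.63% together. The counts of the gene lists below against normal liver stand beside these shares. The median difference over all genes was 0.07. Without the first 36 h array 339 probe sets passed, without the second 124, and without the second normal array 157. Leaving out the 4 arrays of low control ratio leaves only the first array at 36 h. All 162 genes that the naming rule took from this comparison and that passed kept their sign then, which the separation above fixes. In pooled whole liver, a lower level may come from fewer cells of a type or from less RNA per cell, which cannot be told apart here.

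The largest rise was that of Lcn2, lipocalin 2, a siderophore-binding protein that injured liver secretes. Lcn2 had 28851 and 26817 at 36 h, against 352 and 257 in normal liver (log2 difference 6.28 ± 0.49, adjusted p = 5.13e-05). The 36 h arrays lay far above the normal arrays, with no overlap. Ly6d, a GPI-anchored surface protein, had 2701 and 2352 at 36 h, against 30.6 and 6.4 in normal liver, which is at least 44.8-fold higher (adjusted p = 6.63e-05), and neither normal array was above background. The deepest fall was that of Hamp2, a hepcidin paralog, which had 846 and 1599 at 36 h, against 17810 and 18765 in normal liver (log2 difference -3.91 ± 0.27, adjusted p = 1.79e-05). Hamp2 was low in both 36 h arrays, although the ratio between these was larger than that between the normal arrays. Its paralog Hamp, hepcidin itself, named here after its values were seen, had 12987 and 14839.8 at 36 h, against 14348 and 16107 in normal liver and did not pass (adjusted p = 0.864). The 2 genes are close copies, and how far their probe sets cross-hybridise was not tested.

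**Figure D2:**
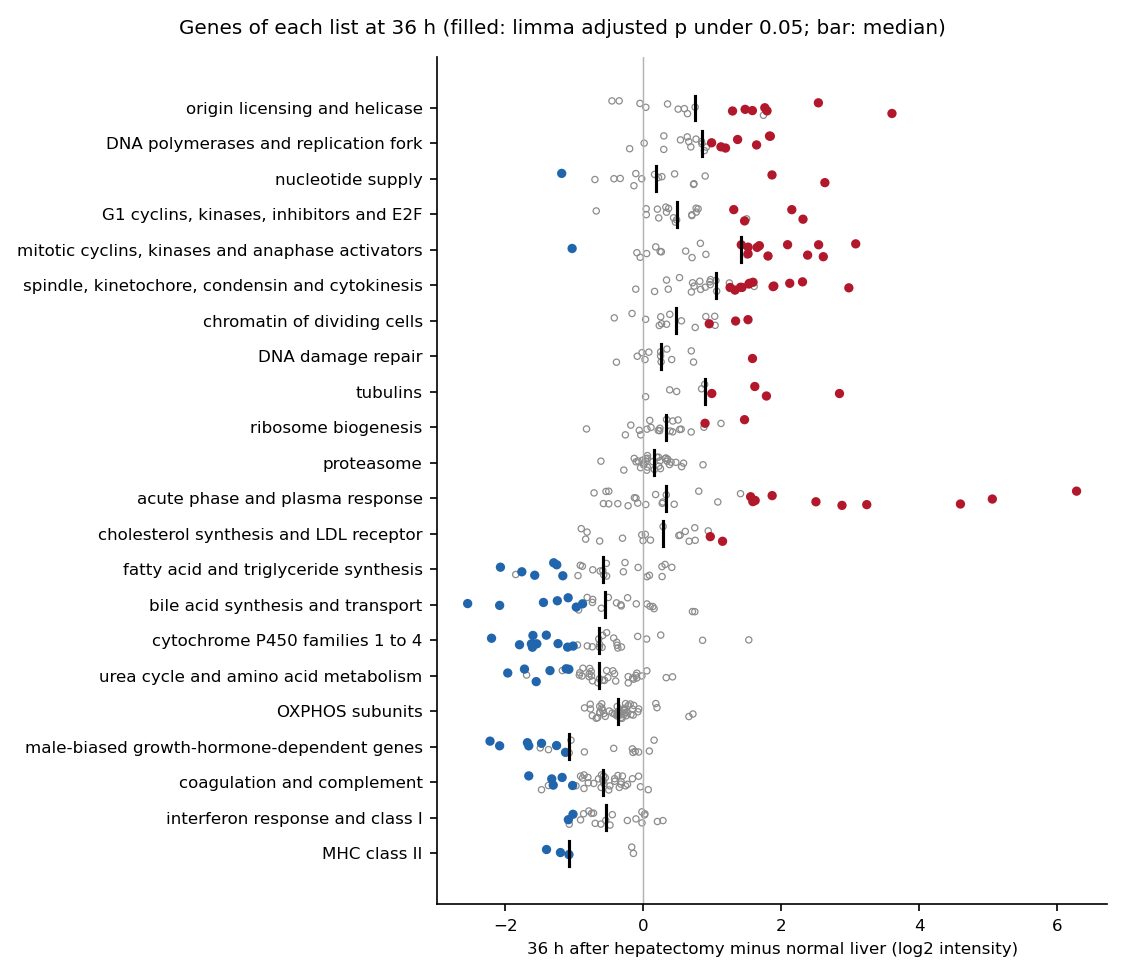
Each point is a gene of a list, placed by its difference between 36 h and normal liver (log2 intensity, horizontal axis). Filled points passed the limma test, red higher and blue lower at 36 h, open points did not, and the black bar is the median of the list, such as 1.42 for the mitotic cyclins and kinases and -1.08 for the male-biased genes.

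Part of the genes that license replication origins rose at 36 h. Of 17 tested genes of origin licensing and the replicative helicase, 7 rose, 0 fell and 10 did not pass, with a median difference of 0.75 beside 0.07 over all genes, where 2.41% of genes rose. Mcm6, a subunit of the ring-shaped MCM helicase that unwinds DNA, had 1391 and 1373 at 36 h, against 12.2 and 146 in normal liver (log2 difference 3.60 ± 0.41, adjusted p = 0.000465). The first normal array was below background here and the second above it, yet both were far under the 36 h pair. Mcm5 had 1019 and 902 at 36 h, against 159.9 and 84.3 in normal liver (log2 difference 2.54 ± 0.25, adjusted p = 0.000176). Mcm7 had 1875 and 1874 at 36 h, against 421 and 622 in normal liver (log2 difference 1.76 ± 0.26, adjusted p = 0.00286). Both subunits were about equal in the 36 h arrays and lower in each normal array. Cdt1, the factor that loads the helicase on origins, had 898 and 813 at 36 h, against 264 and 158 in normal liver (log2 difference 1.79 ± 0.24, adjusted p = 0.00185). Dbf4, the activating subunit of the Cdc7 kinase that fires origins, rose less (log2 difference 1.29 ± 0.27, adjusted p = 0.0194). Mcm3 and Mcm4 also rose, by 1.58 and 1.47. Mcm2, named after its values were seen, had 617 and 269.6 at 36 h, against 135 and 45.9 in normal liver, with the 36 h arrays unequal and an adjusted p of 0.0693. Of the origin recognition subunits, Orc2, Orc3, Orc4, Orc5 and Orc6 ranged from -0.46 to 0.64 and 0 of 5 passed. The count of 7 was 5 without the first 36 h array, 4 without the second, 4 without the second normal array and 2 without the 4 arrays of low control ratio.

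Part of the machinery of the replication fork was higher too. Of 20 tested genes of DNA polymerases and the fork, 7 rose, 0 fell and 13 did not pass, with a median of 0.84. Pcna, the sliding clamp that holds DNA polymerases on the template, had 4356 and 4025 at 36 h, against 1136 and 1497 in normal liver (log2 difference 1.64 ± 0.21, adjusted p = 0.00134). Top2a, the topoisomerase that untangles replicated chromosomes, had 433 and 412 at 36 h, against 119.6 and 44.5 in normal liver (log2 difference 1.84 ± 0.36, adjusted p = 0.0138). Asf1b, a chaperone that hands histones to new DNA, had 388 and 426 at 36 h, against 93.4 and 56.5 in normal liver (log2 difference 1.83 ± 0.32, adjusted p = 0.00715). For all 3 genes the arrays of the groups did not overlap, and for Top2a and Asf1b the first normal array was the higher of its pair. Prim1, the catalytic subunit of primase, rose by 1.37, Rpa1, which coats single-stranded DNA, by 1.19, Lig1, the ligase that joins Okazaki fragments, by 1.12, and Tipin, a fork protection factor, by 0.99. Of the other members only Rfc1 and Fen1 lay near or below 0, at 0.01 and -0.20. The count of 7 was 3 without the first 36 h array, 1 without the second, 1 without the second normal array and 0 without the 4 arrays of low control ratio.

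Of 16 genes of nucleotide supply, 2 rose, 1 fell and 13 did not pass, with a median of 0.19. The shares over all genes were 2.41% higher and 2.21% lower. Rrm2, the regulated subunit of ribonucleotide reductase that makes deoxynucleotides, had 1722 and 1372 at 36 h, against 213 and 188 in normal liver (log2 difference 2.63 ± 0.25, adjusted p = 0.00017). Ctps, CTP synthase, had 789.6 and 1022 at 36 h, against 269.9 and 154 in normal liver (log2 difference 1.86 ± 0.26, adjusted p = 0.00215). Both were several times brighter in each 36 h array than in either normal array. The member that fell was Shmt1, cytosolic serine hydroxymethyltransferase of one-carbon metabolism (log2 difference -1.18 ± 0.26, adjusted p = 0.0248), a call lost without either 36 h array, without the second normal array and without the arrays of low control ratio. Thymidine kinase Tk1, a classical S phase enzyme and named here after its values were seen, had 600.3 and 625 at 36 h, against 551 and 802 in normal liver, and its groups overlapped (log2 difference -0.11 ± 0.33, adjusted p = 0.913).

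Among 21 regulators of G1 and of entry into S phase, 4 rose, 0 fell and 17 did not pass, where 2.41% of all genes rose. The median was 0.48. Ccnd1, cyclin D1, had 3659 and 3783 at 36 h, against 855 and 735 in normal liver (log2 difference 2.15 ± 0.45, adjusted p = 0.0201). The arrays of each group lay close together and far from the other group. Cdkn1a, the Cdk inhibitor p21, had 1627 and 1303 at 36 h, against 222 and 274 in normal liver (log2 difference 2.31 ± 0.37, adjusted p = 0.00487), so a cyclin and an inhibitor of its kinase were higher in the same livers. Ccne1, cyclin E1, had 266 and 314 at 36 h, against 53.7 and 119 in normal liver (log2 difference 1.31 ± 0.32, adjusted p = 0.0411). Cks1b, a small Cdk-binding subunit, rose by 1.47. The S phase transcription factor E2f1 differed by 0.76 and Cdk2 by 0.77, neither past the threshold, and Cdkn1b, the inhibitor p27, by 0.04. The count of 4 was 2 without the first 36 h array, 1 without the second, 2 without the second normal array and 2 without the arrays of low control ratio. Of 18 p53 target genes only Cdkn1a rose and 0 fell, with a median of 0.10.

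Genes of mitosis were among the rises too. Of 23 mitotic cyclins, kinases and anaphase activators, 11 rose, 1 fell and 11 did not pass, where 2.41% of all genes rose. The median was 1.42. Cdk1, the kinase that drives mitosis, had 931 and 748 at 36 h, against 78.3 and 117 in normal liver (log2 difference 2.54 ± 0.23, adjusted p = 0.00014). Ube2c, the ubiquitin-conjugating enzyme of the anaphase-promoting complex, had 508 and 485 at 36 h, against 12.8 and 4.5 in normal liver, at least 8.83-fold higher (adjusted p = 0.00017). Mki67, a coat protein of mitotic chromosomes and a marker of proliferation, had 385 and 339 at 36 h, against 21.8 and 2.8 in normal liver, at least 6.43-fold higher (adjusted p = 0.000931). Neither normal array was above background for Ube2c or Mki67, while both 36 h arrays were. Ccnb2, cyclin B2, had 247 and 254 at 36 h, against 18.9 and 64.1 in normal liver (log2 difference 1.68 ± 0.26, adjusted p = 0.00419). Ccna2, cyclin A2, had 542 and 442 at 36 h, against 182 and 95.9 in normal liver (log2 difference 1.52 ± 0.30, adjusted p = 0.0148). The 36 h values of both cyclins were close to each other and above each normal value. Wee1, the kinase that holds Cdk1 inactive until mitosis, also rose (log2 difference 2.38 ± 0.32, adjusted p = 0.00192), as did Cdc20, the activator of anaphase (log2 difference 1.52 ± 0.28, adjusted p = 0.0108). The kinases Pbk and Plk1 and the spindle checkpoint protein Mad2l1 rose by 1.42 to 2.09, and the checkpoint kinase Ttk was at least 3.25-fold higher (adjusted p = 0.022). The member that fell was Pttg1, securin, the inhibitor of sister chromatid separation, with 2949.9 and 3096 at 36 h, against 5239.6 and 7443 in normal liver (log2 difference -1.03 ± 0.24, adjusted p = 0.033), named after its values were seen, a call lost without either 36 h array, without the second normal array and with the arrays of low control ratio left out or as a block. Foxm1, a transcription factor of mitotic genes, had 276 and 166 at 36 h, against 289.9 and 91.9 in normal liver and overlapped between groups (log2 difference 0.26 ± 0.46, adjusted p = 0.831). The count of 11 was 7 without the first 36 h array, 5 without the second, 7 without the second normal array and 3 without the arrays of low control ratio.

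Of 30 genes of the spindle, kinetochore, condensin and cytokinesis, 12 rose, 0 fell and 18 did not pass, where 2.41% of all genes rose. The median was 1.06, or 1.09 with the genes below background in normal liver set at their bounds. Birc5, survivin, a subunit of the chromosomal passenger complex, had 498 and 423 at 36 h, against 8.7 and 8.3 in normal liver, at least 8.17-fold higher (adjusted p = 1.67e-05). Cdca3, a mitotic entry factor, had 462 and 456 at 36 h, against 65.6 and 31.7 in normal liver, at least 8.16-fold higher (adjusted p = 0.00206). The 36 h arrays were within a narrow range for both genes, and both normal arrays were below background. Kif22, a chromosome-bound kinesin, had 465 and 636 at 36 h, against 108 and 58.5 in normal liver (log2 difference 2.12 ± 0.34, adjusted p = 0.00463). Smc2, a condensin subunit, had 325 and 249 at 36 h, against 75.4 and 7.1 in normal liver (log2 difference 1.89 ± 0.36, adjusted p = 0.0124). Nuf2, of the outer kinetochore, was at least 4.59-fold higher at 36 h than in normal liver (adjusted p = 0.00326), while Nusap1, Stmn1 and Prc1, which bind microtubules, rose by 1.33 to 1.59. Cenpa, the centromeric histone, had 201 and 244 at 36 h, against 209 and 121 in normal liver (log2 difference 0.36 ± 0.25, adjusted p = 0.498), and its groups overlapped. The count of 12 was 6 without the first 36 h array, 4 without the second, 5 without the second normal array and 2 without the arrays of low control ratio.

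Of 9 tubulins, which build the spindle and the interphase cytoskeleton, 4 rose, 0 fell and 5 did not pass, where 2.41% of all genes rose. The tubulin median was 0.89. Tubb6 had 706 and 825 at 36 h, against 39.3 and 78.7 in normal liver (log2 difference 2.84 ± 0.35, adjusted p = 0.00102), Tubb2a rose by 1.78, Tubb5 by 1.62 and Tubb4b by 0.99. Another probe set of Tubb4b had the opposite sign, so its direction rests on the brighter of them. Of 16 chromatin proteins of dividing cells, 3 rose and 0 fell, namely the histone variant H2ax by 1.52, the replication scaffold Topbp1 by 1.34 and the histone chaperone Nap1l1 by 0.95. Among 13 DNA repair genes only Ung, which removes uracil from DNA, rose (log2 difference 1.57 ± 0.23, adjusted p = 0.0031), and 0 fell. The tubulin count was 1 without the second 36 h array and 2 without the second normal array, and the chromatin count was 0 without either 36 h array and without the second normal array.

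**Figure D3:**
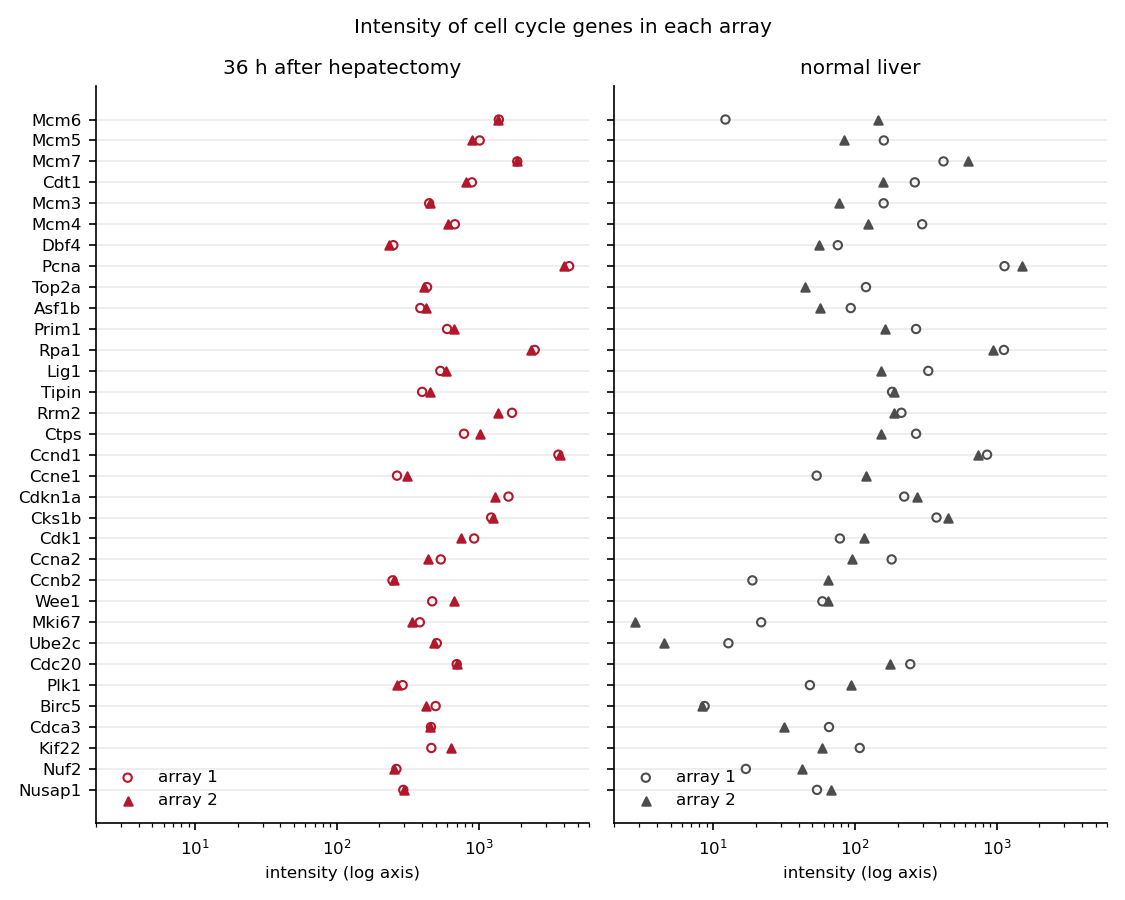
Intensity (log axis) of each cell cycle gene in the 2 arrays at 36 h (left, red) and the 2 arrays of normal liver (right, grey), with circles for array 1 and triangles for array 2. Each gene's 36 h values lie above its normal values, and the normal values of dim genes such as Mcm6 (12.2 and 146) scatter more than the 36 h values do.

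The promoters of the largest rises among these cell cycle groups are printed here because their letters can be set beside the groups that moved together. Each is 300 bases of RefSeq sequence on GRCm38.p6, 250 before to 50 after an annotated start, in transcript orientation. Here and in the shares below, 1 promoter per gene was used. For the 4163 of 27025 genes with several, it was the first by chromosome coordinate, and other starts were not searched. The letters in capitals are E2F words (TTTCCCGC, TTTGGCGC, TTTCGCGC or TTTGCCGC), CHR words (TTTGAA and its variant TTCGAA), the CCAAT box and the spaced word TTCNNNGAA, on either strand, and overlapping matches run together. As background, E2F factors bind words of the first kind in promoters of replication genes, CHR elements are bound by the MuvB complex in promoters of mitotic genes, CCAAT is bound by NF-Y, and STAT5 binds words of the last kind. The first 2 promoters belong to the helicase subunits Mcm6 (chr1:128359656-128359955, minus strand) and Mcm5 (chr8:75109259-75109558, plus strand).
Mcm6: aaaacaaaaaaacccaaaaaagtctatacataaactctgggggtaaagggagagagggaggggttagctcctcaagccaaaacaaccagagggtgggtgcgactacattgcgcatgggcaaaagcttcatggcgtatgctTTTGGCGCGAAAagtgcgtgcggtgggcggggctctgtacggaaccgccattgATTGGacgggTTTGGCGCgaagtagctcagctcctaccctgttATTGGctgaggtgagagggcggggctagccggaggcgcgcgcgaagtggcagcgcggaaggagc
Mcm5: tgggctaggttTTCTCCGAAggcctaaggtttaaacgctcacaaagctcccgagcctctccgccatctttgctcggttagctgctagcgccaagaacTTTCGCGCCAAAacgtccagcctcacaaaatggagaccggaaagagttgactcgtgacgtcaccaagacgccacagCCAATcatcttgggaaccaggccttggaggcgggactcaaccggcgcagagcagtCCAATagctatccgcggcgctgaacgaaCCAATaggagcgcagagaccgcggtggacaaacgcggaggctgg
The next 2 belong to the fork genes Top2a (chr11:99024140-99024439, minus strand) and Asf1b (chr8:83955444-83955743, plus strand).
Top2a: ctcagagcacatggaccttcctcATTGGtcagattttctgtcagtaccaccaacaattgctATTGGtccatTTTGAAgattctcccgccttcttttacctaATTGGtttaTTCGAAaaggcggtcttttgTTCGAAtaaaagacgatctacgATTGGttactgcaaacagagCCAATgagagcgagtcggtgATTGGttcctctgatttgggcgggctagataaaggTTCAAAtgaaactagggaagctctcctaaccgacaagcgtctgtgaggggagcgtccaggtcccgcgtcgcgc
Asf1b: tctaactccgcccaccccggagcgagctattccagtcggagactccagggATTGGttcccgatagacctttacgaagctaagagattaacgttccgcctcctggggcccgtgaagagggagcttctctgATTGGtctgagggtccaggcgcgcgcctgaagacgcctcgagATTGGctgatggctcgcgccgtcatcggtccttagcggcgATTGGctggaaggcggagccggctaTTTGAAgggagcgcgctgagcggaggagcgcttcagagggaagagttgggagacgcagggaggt
The mitotic genes Ube2c (chr2:164769679-164769978, plus strand) and Mki67 (chr7:135716330-135716629, minus strand) follow.
Ube2c: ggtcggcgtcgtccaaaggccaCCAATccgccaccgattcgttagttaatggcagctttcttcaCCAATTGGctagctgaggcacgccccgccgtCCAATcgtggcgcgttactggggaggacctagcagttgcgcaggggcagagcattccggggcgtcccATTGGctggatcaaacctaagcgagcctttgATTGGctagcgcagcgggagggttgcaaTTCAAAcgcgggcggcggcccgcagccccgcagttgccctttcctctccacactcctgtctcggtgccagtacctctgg
Mki67: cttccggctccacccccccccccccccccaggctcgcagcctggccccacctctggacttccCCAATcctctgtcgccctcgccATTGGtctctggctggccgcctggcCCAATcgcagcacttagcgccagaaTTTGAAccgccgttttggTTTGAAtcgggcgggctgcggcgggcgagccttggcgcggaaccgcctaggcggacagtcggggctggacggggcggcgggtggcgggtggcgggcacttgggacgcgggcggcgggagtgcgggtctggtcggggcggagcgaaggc
The last 2 are of the spindle group, Birc5 (chr11:117848987-117849286, plus strand) and Cdca3 (chr6:124829926-124830225, plus strand).
Birc5: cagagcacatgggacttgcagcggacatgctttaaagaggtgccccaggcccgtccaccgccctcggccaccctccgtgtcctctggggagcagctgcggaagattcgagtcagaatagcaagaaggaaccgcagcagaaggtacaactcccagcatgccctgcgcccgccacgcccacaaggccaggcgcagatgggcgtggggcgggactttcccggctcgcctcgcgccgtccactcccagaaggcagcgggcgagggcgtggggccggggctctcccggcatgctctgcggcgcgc
Cdca3: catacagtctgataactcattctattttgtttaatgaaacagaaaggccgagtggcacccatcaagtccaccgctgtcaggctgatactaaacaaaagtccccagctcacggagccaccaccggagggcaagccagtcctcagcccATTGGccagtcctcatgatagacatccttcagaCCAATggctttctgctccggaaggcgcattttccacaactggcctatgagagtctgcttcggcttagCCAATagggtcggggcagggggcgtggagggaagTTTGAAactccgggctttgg
Mcm6 held 3 E2F words and Mcm5 2, with overlaps in each, and neither held a CHR word. Top2a held 4 CHR words and 6 CCAAT boxes, Ube2c 1 and 6, Mki67 2 and 3, Asf1b 1 and 4 and Cdca3 1 and 3. Mcm5 also held 1 TTCNNNGAA, which the other 7 did not. In this window Birc5 held none of the words.

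Over all 27025 genes with a RefSeq promoter, 2.34% held an E2F word, and of the 6875 tested genes with a promoter, 3.94% did. Of 13 licensing genes with a promoter 5 (38.5%) held one, of 18 fork genes 4 (22.2%), of 18 mitotic genes 1 (5.56%) and of 25 spindle genes 3 (12.0%). CHR words were in 19.4% of all promoters and 13.5% of those of tested genes, beside 15.4% of the licensing, 16.7% of the fork, 61.1% of the mitotic and 76.0% of the spindle promoters. Of the male-biased liver genes described further on, 7 of 14 promoters held a CHR word. CCAAT was in 37.8% of all promoters and 38.0% of those of tested genes, beside 61.5% of the licensing, 9 of 18 of the fork, 77.8% of the mitotic and 68.0% of the spindle promoters, and in 93.3% of 15 promoters of cholesterol synthesis genes. Among all 165 genes that rose at 36 h and have a promoter, 7.88% held an E2F word, 15.8% a CHR word and 46.7% CCAAT. Among the 153 that fell and have a promoter, the shares were 3.27%, 15.7% and 41.8%, in that order. A match of letters is a description of these windows and not a binding site.

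Part of the licensing and of the mitotic genes also differed between 36 h and the neighbouring times. These comparisons share the 36 h arrays with the comparison against normal liver. Of the 17 licensing genes, 9 were higher at 36 h than at 12 h (3.38% of all genes were, and 4.72% differed in either direction) and 0 lower, and against 48 h 0 were higher and 0 lower, with a median of -0.00. Mcm6 was at least 11.6-fold higher at 36 h than at 12 h (adjusted p = 0.000554), where neither array was above background. Against 48 h Mcm6 differed by 0.24 and Pcna by 0.09, neither past the threshold. Of the 23 mitotic genes 8 were higher and 0 lower than at 12 h, and 0 were higher and 6 lower than at 48 h, where 0.26% of all genes were lower. Cdc20 had 179.6 and 152 in the 12 h arrays, 702 and 710.2 in the 36 h arrays and 3734 and 5033 in the 48 h arrays (log2 difference -2.53 ± 0.28, adjusted p = 0.00553 for 36 h minus 48 h). The 48 h arrays of Cdc20 were several times the 36 h arrays, which in turn lay above those of 12 h. Ube2c was at least 4.16-fold higher than at 12 h (adjusted p = 0.000552) and lower than at 48 h (log2 difference -2.32 ± 0.30, adjusted p = 0.00835), and Birc5 at least 3.85-fold higher than at 12 h (adjusted p = 7.4e-05) and lower than at 48 h (log2 difference -1.65 ± 0.20, adjusted p = 0.00835). Of the 30 spindle genes 11 were higher than at 12 h and 8 lower than at 48 h, among them the kinesin Kif20a (log2 difference -1.82 ± 0.29, adjusted p = 0.0159). The 6 mitotic and 8 spindle genes lower than at 48 h were 0 and 0 without the second 36 h array and without the second 48 h array, 3 and 2 without the first 48 h array, 5 and 4 without the first 36 h array and 0 and 0 without the arrays of low control ratio. The 9 licensing and 11 spindle genes higher than at 12 h were 4 and 5 without the first 36 h array, 5 and 6 without the second and 0 and 1 without the arrays of low control ratio, where 1 of the 8 mitotic genes passed. Whether the lists differ from each other in these shifts was not tested. Relative to normal liver the medians over 12, 36, 48 and 72 h, in that order, were 0.07, 1.42, 2.30 and 1.91 for the mitotic list and -0.07, 0.75, 1.35 and 0.76 for the licensing list.

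**Figure D4:**
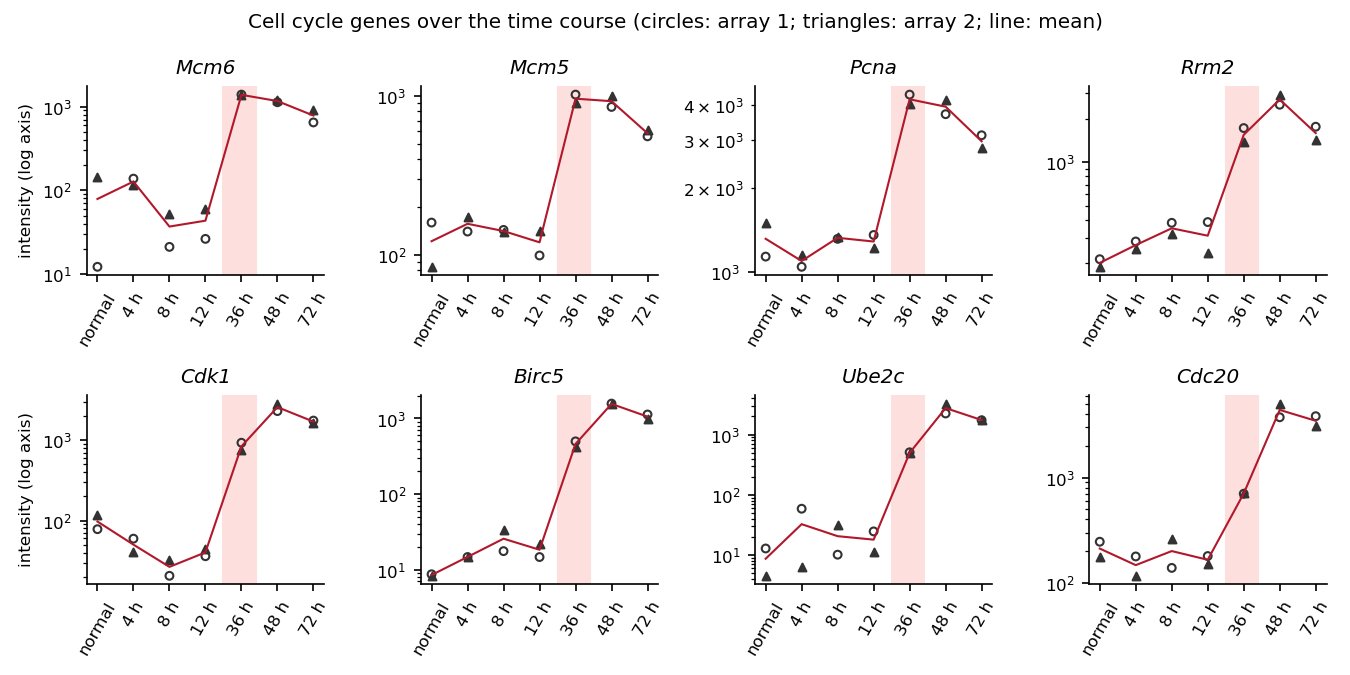
Intensity (log axis) in each array of normal liver and at 4, 8, 12, 36, 48 and 72 h for 8 cell cycle genes, with circles for array 1, triangles for array 2, a line through the means and 36 h shaded. Mcm6, Mcm5 and Pcna have similar intensities at 36 h and 48 h, while Rrm2, Cdk1, Birc5, Ube2c and Cdc20 are brighter in both 48 h arrays.

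Acute phase proteins, which hepatocytes secrete after injury, included the largest rises. Of 29 genes of the list, 10 rose, 0 fell and 19 did not pass, with a median of 0.33, where 2.41% of all genes rose. Saa1, serum amyloid A1, had 31091 and 23103 at 36 h, against 1041 and 1066 in normal liver (log2 difference 4.60 ± 0.29, adjusted p = 9.9e-06). Saa2 had 19675 and 17222 at 36 h, against 484 and 511 in normal liver (log2 difference 5.06 ± 0.32, adjusted p = 9.9e-06). Saa1 and Saa2 are near-identical in sequence, and their probe sets may share signal. Orm2, an orosomucoid, had 2218 and 1920.3 at 36 h, against 186 and 151 in normal liver (log2 difference 3.24 ± 0.35, adjusted p = 0.000388). The metallothioneins Mt1 and Mt2, which bind zinc and copper, rose by 2.50 and 2.88, Apcs, serum amyloid P, by 1.87, the interleukin 1 receptor Il1r1 by 1.62, and Socs3, the feedback inhibitor of interleukin 6 signalling, by 1.55, of which another probe set had the opposite sign (-0.46) without passing. In contrast to the amyloids, haptoglobin Hp differed by -0.11, the fibrinogen chains Fga, Fgb and Fgg by -0.50, -0.58 and -0.37 and Crp by -0.72, none past the threshold. The count of 10 was 10 and 7 without the first and second 36 h array, 8 and 7 without the first and second normal array, and 6 without the arrays of low control ratio. Against 12 h, Saa1 differed by -0.49 and Lcn2 by 0.38, and against 48 h by -0.03 and 1.29, none past the threshold.

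A few cytokine, growth factor and immediate-early genes passed in each direction. Among all genes 2.41% rose and 2.21% fell, and whether these few exceed those shares was not tested. Of 14 cytokine and NF-kB genes 2 rose and 1 fell. The neutrophil attractant Cxcl1 had 1029 and 1447 at 36 h, against 214 and 151 in normal liver (log2 difference 2.43 ± 0.41, adjusted p = 0.00615), and Ccl2, which attracts monocytes, rose by 1.15. Cxcl9, an interferon-gamma-induced chemokine, had 15 and 9.7 at 36 h, against 342 and 341 in normal liver, at least 6.37-fold lower (adjusted p = 0.00014), below background in both 36 h arrays. Of 26 growth factors and receptors 2 rose and 1 fell. Fgf21, a hormone of the fasted liver, had 500.1 and 684 at 36 h, against 37.6 and 29.9 in normal liver, at least 10.4-fold higher (adjusted p = 0.000947). Tnfrsf12a, the TWEAK receptor, passed with 3303 and 383 at 36 h, against 47.4 and 108 in normal liver (log2 difference 3.21 ± 0.72, adjusted p = 0.0275), the 36 h arrays being far apart. The growth hormone receptor Ghr fell (log2 difference -1.18 ± 0.24, adjusted p = 0.0171), and Hgf, hepatocyte growth factor, had 223 and 175 at 36 h, against 135 and 141 in normal liver (log2 difference 0.38 ± 0.21, adjusted p = 0.382). Of 25 immediate-early genes, which peak within hours of the operation, 2 rose (Ier3 by 1.88, Ier5 by 1.21) and 2 fell. The falls were the phosphatase Dusp1 (-1.99), just past the threshold (limma adjusted p rounding to 0.05), and the mRNA decay factor Zfp36 (-1.35). Jun had 397 and 515 at 36 h, against 682 and 451 in normal liver (log2 difference -0.27 ± 0.31, adjusted p = 0.727). Myc had 166 and 288 at 36 h, against 556 and 574 in normal liver (log2 difference -1.16 ± 0.39, adjusted p = 0.132). Myc was lower in each 36 h array than in each normal array and did not pass, although with the arrays of low control ratio as a block it did (log2 difference -1.53, limma adjusted p = 0.0126). Myc was lower than at 12 h (log2 difference -1.79 ± 0.39, limma adjusted p = 0.024), where the arrays were far apart (523 and 1536). The first 12 h array was near the normal arrays, and the second is of low control ratio. With 1 of the 4 arrays left out at a time, the cytokine rises numbered 0 to 2 (0 without the second 36 h array and without the second normal array), the growth factor rises 1 to 2, the immediate-early rises 1, and the immediate-early falls 0 to 1 (1 without the first normal array), and the fall of Ghr was lost without either 36 h array and without the second normal array.

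Of 23 ribosome biogenesis genes 2 rose, the snoRNP protein Nhp2 by 1.47 and nucleostemin Gnl3 by 0.89, and 0 fell, with a median of 0.33. For this and the next lists, the shares over all genes were 2.41% higher and 2.21% lower. Of 6 genes of Myc and polyamine synthesis only Odc1, ornithine decarboxylase, rose, by 1.19, another of its probe sets had the opposite sign, and the call was lost without the second 36 h array and without either normal array. Among 32 proteasome genes and 25 of translation 0 passed in either direction, with 26.3% of all genes having 36 h arrays that both exceeded the normal pair and 14 and 13 of these doing so. Of 24 genes of folding in the endoplasmic reticulum and of the unfolded protein response, 2 rose. These were asparagine synthetase Asns, by 1.75, and the chaperone Dnajb9, by 1.12. Of 19 cytosolic and mitochondrial chaperones 1, Hspa8, rose by 0.97, with another probe set of opposite sign. The call of Hspa8 was lost without either 36 h array or the second normal array. NRF2 targets, which detoxify oxidants, had 4 of 17 higher, with the glutathione transferase Gstm3 at 18329 and 14868 at 36 h, against 4782 and 5326 in normal liver (log2 difference 1.70 ± 0.23, adjusted p = 0.00186), the quinone reductase Nqo1 higher by 1.42, glutathione reductase Gsr by 1.04 and thioredoxin reductase Txnrd1 by 1.01. Psat1, of serine synthesis, had 399 and 502 at 36 h, against 10.9 and 1.9 in normal liver, at least 7.95-fold higher (adjusted p = 0.00014). Of the clock genes Dbp, an output factor of the liver clock, had 908 and 844 at 36 h, against 163 and 89.1 in normal liver (log2 difference 2.38 ± 0.25, adjusted p = 0.000259), and it was the only one of 13 that passed. Among 22 genes of the glucocorticoid and fasting response Fkbp5, a cochaperone of the glucocorticoid receptor, rose by 1.25, Cebpd by 1.11 and Fgf21, and Klf15 fell (-1.12). Usp2, a ubiquitin protease under clock control, had 1295 and 1058 at 36 h, against 217 and 35 in normal liver (log2 difference 2.95 ± 0.53, adjusted p = 0.00899). With 1 of the 4 arrays left out at a time the NRF2 count was 1 to 2, that of the endoplasmic reticulum 0 to 2, that of ribosome biogenesis 1 and the glucocorticoid rises 1, and the fall of Klf15 was lost without either 36 h array and without the second normal array. The hours of day of the operations and of tissue collection are not in the labels used here.

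Genes of cholesterol synthesis were among those higher at 36 h than at 12 h and 48 h, and a few were higher than in normal liver. Of 19 tested genes of the pathway and its regulators, 2 rose against normal liver, 0 fell and 17 did not pass, with a median of 0.29. Against 12 h 14 of the 19 were higher and 0 lower, with a median of 1.52, and against 48 h 8 were higher (0.284% of all genes were) and 0 lower, with a median of 1.19. Idi1, isopentenyl diphosphate isomerase, had 2509.7 and 2034 in normal liver, 1363 and 637 in the 12 h arrays, 5006 and 5146 in the 36 h arrays and 1412 and 1258 in the 48 h arrays. It differed by 1.15 from normal liver, by 2.37 from 12 h and by 1.88 from 48 h. Cyp51, lanosterol demethylase, had 958 and 1239.6 in normal liver, 442 and 518 in the 12 h arrays, 2388 and 2008 in the 36 h arrays and 638 and 504 in the 48 h arrays (log2 difference 0.97 ± 0.23, adjusted p = 0.0328 against normal liver). Both 36 h arrays exceeded every array of 12 h, 48 h and normal liver for Idi1 and Cyp51. Hmgcs1, which makes the precursor of mevalonate, differed by 0.61 from normal liver, by 2.70 from 12 h and by 1.77 from 48 h, the last 2 past the threshold, and squalene epoxidase Sqle by 0.75, 1.53 and 2.09, again the last 2 past it. Mevalonate kinase Mvk was at least 6.8-fold higher than at 12 h (adjusted p = 0.000368), and Lss, lanosterol synthase, and the sterol oxidase Msmo1 were higher than at 48 h, by 2.15 and 2.09. Relative to normal liver the median of the list over 4, 8, 12, 36, 48 and 72 h was -0.00, -0.65, -1.10, 0.29, -0.81 and -0.78, in that order. The 2 rises against normal liver were lost without any 1 of the 4 arrays. The 14 genes higher than at 12 h were 8 without the first 36 h array and 0 without the arrays of low control ratio, and the 8 higher than at 48 h were 5 and 0 without the first and second 36 h array, 3 and 1 without the first and second 48 h array and 0 without the arrays of low control ratio.

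Some genes of fatty acid synthesis fell. Of 25 genes of fatty acid and triglyceride synthesis, 0 rose, 6 fell and 19 did not pass, with a median of -0.59, where 2.21% of all genes fell. Mlxipl, the carbohydrate-responsive factor ChREBP, had 1232 and 1284 at 36 h, against 4836 and 6194 in normal liver (log2 difference -2.07 ± 0.33, adjusted p = 0.00437). Thrsp, the lipogenic protein Spot 14, had 4010 and 4558 at 36 h, against 15581 and 13769 in normal liver (log2 difference -1.76 ± 0.40, adjusted p = 0.0295). Acss2, which makes acetyl-CoA from acetate, had 1820.3 and 1856 at 36 h, against 5499 and 5686 in normal liver (log2 difference -1.58 ± 0.25, adjusted p = 0.0041). For these 3 genes each 36 h array was under each normal array, as for every called fall. Pyruvate kinase Pklr (-1.30), Mid1ip1 (-1.26) and fatty acid synthase Fasn (-1.17) fell less. Srebf1, SREBP-1, had 2079 and 2297 at 36 h, against 4117 and 4429 in normal liver and did not pass (log2 difference -0.95 ± 0.31, adjusted p = 0.115). The count of 6 was 3 and 2 without the first and second 36 h array, 5 and 2 without the first and second normal array and 1 without the arrays of low control ratio. Of 15 lipid droplet genes 2 rose and 1 fell. Cidec, which fuses lipid droplets, had 729 and 533 at 36 h, against 36.4 and 31 in normal liver, at least 11.1-fold higher (adjusted p = 0.000987), Fabp4, a fatty acid carrier, rose by 1.78 and lipoprotein lipase Lpl fell (-1.52). These 3 genes also mark fat tissue. Of the 4 tested fat markers, the fourth being resistin Retn, 2 rose and 1 fell, with a median of 1.43. They summed to 2889 and 2792 at 36 h, against 2791 and 3449 in normal liver, and without Lpl, the brightest in normal liver, the other 3 summed to 2035.5 and 1830.6 at 36 h, against 427.8 and 353.9 in normal liver. The part of fat tissue in these rises was not tested. Apoa4, an apolipoprotein of chylomicrons and of fatty liver, had 23521 and 22494 at 36 h, against 1362 and 1319 in normal liver (log2 difference 4.04 ± 0.32, adjusted p = 5.13e-05), and Apoc2, the cofactor of lipoprotein lipase, rose by 1.31, while the other 15 of 17 apolipoprotein genes did not pass, with a list median of -0.42. Without the second 36 h array 1 of the 2 lipid droplet rises and 1 of the 2 apolipoprotein rises passed, and the fall of Lpl was lost without either 36 h array and without the second normal array. In fatty acid oxidation 1 of 26 fell, the peroxisomal thiolase Acaa1b (log2 difference -1.80 ± 0.30, adjusted p = 0.00577), a call lost without the second 36 h or the second normal array.

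Genes of bile acid synthesis and transport fell in part. Of 24 tested, 0 rose, 7 fell and 17 did not pass, with a median of -0.56, where 2.21% of all genes fell. Cyp8b1, the enzyme that sets the share of cholic acid, had 828 and 799.6 at 36 h, against 4809.7 and 5272 in normal liver (log2 difference -2.55 ± 0.28, adjusted p = 0.000388). Both 36 h arrays were close to each other and several times under the normal pair. The uptake carrier Slco1a1 had 1160.1 and 822 at 36 h, against 3778 and 4963 in normal liver (log2 difference -2.08 ± 0.31, adjusted p = 0.0031). Slc27a5, which activates bile acids with coenzyme A (-1.45), Cyp27a1, of the acidic synthesis route (-1.25), the sodium-dependent uptake carrier Slc10a1 (-1.09), the synthesis enzyme Hsd3b7 (-0.97) and the sterol exporter subunit Abcg8 (-0.88) also fell. Cyp7a1, whose product limits the rate of bile acid synthesis, had 1359.9 and 1259 at 36 h, against 1104 and 1348 in normal liver (log2 difference 0.10 ± 0.30, adjusted p = 0.916), its groups overlapping, and it was higher than at 12 h (log2 difference 2.18 ± 0.30, adjusted p = 0.00195). The count of 7 was 4 and 3 without the first and second 36 h array, 4 and 2 without the first and second normal array, and 1 without the arrays of low control ratio.

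Among 29 cytochromes P450 of families 1 to 4, 0 rose, 10 fell and 19 did not pass, where 2.21% of all genes fell. The median was -0.64. Cyp2b9 had 308 and 355 at 36 h, against 1623 and 1839 in normal liver (log2 difference -2.20 ± 0.30, adjusted p = 0.00186). Cyp2c70 had 7981 and 7269.7 at 36 h, against 24136 and 29318 in normal liver (log2 difference -1.80 ± 0.25, adjusted p = 0.00215). Cyp2f2 had 11233 and 12249 at 36 h, against 32549 and 39612 in normal liver (log2 difference -1.61 ± 0.23, adjusted p = 0.00286). Each of them was lower in both 36 h arrays than in either normal array. Cyp4v3, Cyp4f15, Cyp2c54, Cyp4f14 and Cyp2c37 fell too, with differences between -1.62 and -1.24, as did Cyp2d26 (-1.10) and Cyp2d22 (-1.02). Cyp2e1 had 22769 and 19762 at 36 h, against 30787 and 35937 in normal liver (log2 difference -0.65 ± 0.25, adjusted p = 0.188). Cyp3a11 had 20946 and 16586 at 36 h, against 28009 and 30110.4 in normal liver (log2 difference -0.64 ± 0.22, adjusted p = 0.146). These bright P450s were lower in both 36 h arrays without passing. Members of the 2c, 2d and 4f families are close copies, and their probe sets may share signal. The count of 10 was 7 and 3 without the first and second 36 h array, 9 and 4 without the first and second normal array, and 1 without the arrays of low control ratio. Of 26 conjugating enzymes 3 rose and 5 fell. Sult1e1, the estrogen sulfotransferase, had 1641 and 2298 at 36 h, against 19.4 and 6 in normal liver, at least 34.5-fold higher (adjusted p = 0.000218), the glutathione transferases Gstm3 and Gstm2 rose by 1.70 and 1.49, and Gsta3, Gstt1, Ugt2b1, Ugt3a2 and Ugt2a3 fell, with differences between -1.54 and -1.16. Without the second 36 h array and without the second normal array 1 of the 5 conjugating enzymes fell. Sult1e1 was also at least 23.4-fold higher at 36 h than at 48 h (adjusted p = 0.00416), the largest of the rises that passed between those times.

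Male-biased genes, which depend on the pulsed release of growth hormone and on STAT5B, had the lowest median of the liver function lists. Of 19 tested, 0 rose, 7 fell and 12 did not pass, with a median of -1.08, where 2.21% of all genes fell. Hsd3b5, a steroid dehydrogenase of male liver, had 904 and 618 at 36 h, against 3052 and 4494 in normal liver (log2 difference -2.22 ± 0.42, adjusted p = 0.0115). Keg1, a glycine N-acyltransferase-like protein, had 2396 and 2198 at 36 h, against 6975 and 6039 in normal liver (log2 difference -1.48 ± 0.24, adjusted p = 0.00535). Both 36 h arrays of these genes were low, yet at 12 h they had been lower still, since Hsd3b5 was at least 6.26-fold higher at 36 h than at 12 h (adjusted p = 0.00166) and Keg1 differed by 2.77 (adjusted p = 0.00027). Slco1a1, Hsd3b2, the complement subunit C8b, the cortisol carrier Serpina6 and Nudt7 fell, with differences between -2.08 and -1.13. Stat5b itself had 255 and 279.9 at 36 h, against 614 and 781 in normal liver (log2 difference -1.21 ± 0.28, adjusted p = 0.0295), and it was the only one of 27 liver-enriched transcription factors and nuclear receptors that passed, a call lost without either 36 h array, without the second normal array and without the arrays of low control ratio. In the 2 largest falls of the list, Hsd3b5 and Slco1a1, the promoter window held no TTCNNNGAA, which was in 21.4% of 14 promoters of the list and 6.76% of those of tested genes. The count of 7 was 6 and 2 without the first and second 36 h array, 6 and 3 without the first and second normal array, and 0 without the arrays of low control ratio. Of 10 female-biased genes Sult1e1 rose and Cyp2b9 fell.

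Some genes of amino acid metabolism, glucose metabolism and coagulation fell, where 2.21% of all genes fell. Of 38 genes of the urea cycle and amino acid metabolism 0 rose and 6 fell, with a median of -0.65. Hal, histidine ammonia-lyase, had 2018 and 1439 at 36 h, against 5436 and 8583 in normal liver (log2 difference -1.97 ± 0.31, adjusted p = 0.00426). Haao, of the kynurenine pathway, had 2871 and 2807 at 36 h, against 8387 and 10788 in normal liver (log2 difference -1.72 ± 0.28, adjusted p = 0.00531). Otc, of the urea cycle, had 4742 and 3245 at 36 h, against 10657 and 9614 in normal liver (log2 difference -1.35 ± 0.23, adjusted p = 0.00637). In each the 36 h arrays were under the normal arrays. Prodh, Amdhd1 and Ahcy, of proline, histidine and methionine metabolism, fell, with differences between -1.55 and -1.08. Of 26 glucose genes 0 rose and 3 fell, Pklr (-1.30), ketohexokinase Khk (-1.28) and glycogen phosphorylase Pygl (-1.01). G6pc, which releases glucose from the liver, had 2422 and 2299 at 36 h, against 6735 and 9229 in normal liver and missed the threshold (log2 difference -1.72 ± 0.45, adjusted p = 0.0558). Of 38 coagulation and complement genes 0 rose and 5 fell, with a median of -0.58, C8b (-1.66), mannose-binding lectin Mbl2 (-1.33), complement C2 (-1.31), coagulation factor F10 (-1.18) and prothrombin F2 (-1.03). Without the first 36 h array these counts of 6, 3 and 5 were 6, 0 and 3, without the second 0, 0 and 1, and without the second normal array 1, 0 and 1.

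Other abundant products of the liver stayed under the threshold. Of 12 plasma carriers 0 passed in either direction at a median of -0.56, with Alb, albumin, at 34875 and 33995 at 36 h, against 46243 and 64350.4 in normal liver (log2 difference -0.66 ± 0.29, adjusted p = 0.253). Afp, alpha-fetoprotein, had 202 and 339.5 at 36 h, against 92.3 and 66.5 in normal liver (log2 difference 1.24 ± 0.35, adjusted p = 0.0711). Of 53 subunits of oxidative phosphorylation 0 passed in either direction at a median of -0.36, although 41 of them were lower in both 36 h arrays than in both normal arrays, beside 21.2% of all genes. Of 9 hepatocyte markers 0 passed, at a median of -0.59.

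Falls outside these groups included Coq8a, a mitochondrial protein of coenzyme Q synthesis, with 498 and 502 at 36 h, against 5113 and 7678 in normal liver (log2 difference -3.50 ± 0.34, adjusted p = 0.00017). Neat1, the long noncoding RNA of paraspeckles, had 150.5 and 240.1 at 36 h, against 1106 and 2040.4 in normal liver (log2 difference -2.65 ± 0.54, adjusted p = 0.0167). Coq8a was nearly equal in the 36 h arrays, while the normal arrays of Neat1 differed from each other by more than the 36 h arrays did. The water channel Aqp8 had 354 and 537 at 36 h, against 2570.4 and 2341 in normal liver (log2 difference -2.34 ± 0.47, adjusted p = 0.0166). Carbonic anhydrase Car3 had 6765 and 6276 at 36 h, against 30581 and 32905 in normal liver (log2 difference -2.27 ± 0.22, adjusted p = 0.00017). Both were several times dimmer in each 36 h array. Lifr, the leukemia inhibitory factor receptor, Pigr, the receptor that carries IgA into bile, Nat8f1, the stress gene Gadd45g and the succinate receptor Sucnr1 fell, with differences between -2.41 and -2.06. Of 19 genes with a zone of the lobule 3 fell, where 2.21% of all genes fell. They were the periportal Hal and Cyp2f2 and the calcium-binding Rgn (-0.88). In iron handling Tfrc, the transferrin receptor, rose (log2 difference 1.48 ± 0.22, adjusted p = 0.00335), as did Id1, a target of BMP signalling, by 1.15, 1 of the 2 passing with any 1 array left out, and the zonation falls were then 1 to 2.

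**Figure D5:**
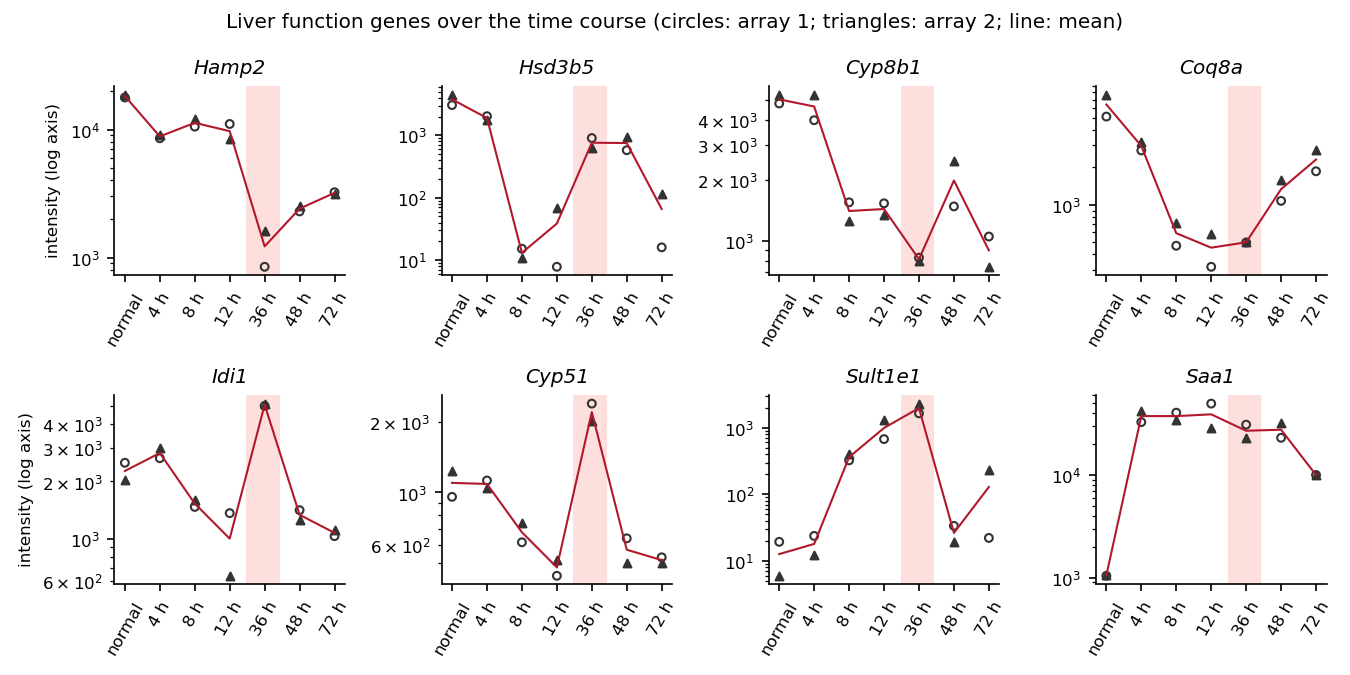
Intensity (log axis) in each array of normal liver and at 4, 8, 12, 36, 48 and 72 h for 8 genes of liver function, with circles for array 1, triangles for array 2, a line through the means and 36 h shaded. Hamp2 is lowest at 36 h (846 and 1599), Idi1 and Cyp51 are highest there, and Saa1 stays far above normal liver from 4 h on.

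Markers of the other cells of the liver moved in few cases, where 2.41% of all genes rose and 2.21% fell. Whether counts of 1 to 3 exceed those shares was not tested. Of 16 Kupffer cell and macrophage markers 1 rose, the scavenger receptor Marco, with 920.1 and 686 at 36 h, against 169.8 and 133 in normal liver (log2 difference 2.04 ± 0.47, adjusted p = 0.0324), a call lost with any 1 of the 4 arrays left out, and 0 fell, and the summed intensities of the list were 13181 and 14763.2 at 36 h, against 15469.4 and 16313.5 in normal liver. The Kupffer cell markers Clec4f, Cd5l and Vsig4 differed by -0.88, -0.10 and -0.12. Of 9 neutrophil markers 1 rose, S100a8 of the calprotectin dimer, with 240.4 and 820.4 at 36 h, against 9.2 and 61.5 in normal liver (log2 difference 2.53 ± 0.42, adjusted p = 0.00559), the second 36 h array being the higher. The summed neutrophil intensities were 1490.2 and 2981.5 at 36 h, against 1200.4 and 932.2 in normal liver. Of 5 MHC class II genes, which present antigen, 3 fell. H2-Aa had 279 and 351 at 36 h, against 976 and 873 in normal liver (log2 difference -1.40 ± 0.24, adjusted p = 0.00724). The invariant chain Cd74 had 429 and 577 at 36 h, against 1237 and 1206 in normal liver (log2 difference -1.20 ± 0.21, adjusted p = 0.00671). H2-Ab1 had 155 and 161 at 36 h, against 456 and 346 in normal liver (log2 difference -1.08 ± 0.27, adjusted p = 0.0428). All 3 were lower in both 36 h arrays, the 5 genes summed to 1391 and 1921 at 36 h, against 3704 and 2970 in normal liver, and the count was 0 without the first 36 h array and 0 without the arrays of low control ratio. Of 21 interferon response and class I genes 0 rose and 2 fell, Ifit1 (-1.09) and Ifit3 (-1.02), with a median of -0.55. Of 13 endothelial and 13 stellate cell markers 0 passed in either direction, and of 4 lymphocyte markers 0, with Ighm at 24.3 and 206 at 36 h, against 409 and 327 in normal liver, which passed as lower with the arrays of low control ratio left out (adjusted p = 0.0219) or as a block (adjusted p = 0.0359). Of 7 cholangiocyte and progenitor markers 3 rose, the keratins Krt8 and Krt18, which hepatocytes also express, by 1.95 and 1.73, and Cd24a by 1.58, while Krt19, which marks bile ducts, differed by -0.03. The 7 summed to 29679 and 26459 at 36 h, against 7388 and 8952 in normal liver, and most of each sum was the keratins Krt8 and Krt18. Krt8 had 13806 and 12920.5 at 36 h, against 2824 and 4135 in normal liver. Krt18 had 14752 and 12209 at 36 h, against 3748 and 4297.5 in normal liver. Of 24 matrix genes 3 rose, the protease inhibitor Timp1 by 1.70, the membrane protease Mmp14 by 1.25 and basement membrane collagen Col4a1 by 1.13. With 1 of the 4 arrays left out at a time, the matrix count was 1 to 2, the cholangiocyte count 1 to 2 and the interferon falls 0 to 1. The part of changed cell numbers in the results above was not tested.

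Of the 204 genes that rose against normal liver, 58 were also higher at 36 h than at 12 h, 10 were lower and 136 did not pass, and against 48 h 15 were higher, 9 lower and 180 did not pass. Of the 187 genes that fell, 7 were higher than at 12 h, 15 lower and 165 did not pass, and against 48 h 0 were higher, 2 lower and 185 did not pass. In all, 597 probe sets (4.4%) differed between 36 h and 12 h, 420 of them higher (3.09%) and 177 lower (1.3%), and 63 (0.464%) between 36 h and 48 h. The count of 597 was 215 and 195 without the first and second 36 h array and 1040 without the first 12 h array, and that of 63 was 1 without the second 36 h array, 19 and 3 without the first and second 48 h array.

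Some of the largest differences from 12 h lay outside the groups above. Gadd45b, a protein that stress induces and that acts on MAP kinases, had 248 and 2514 in the 12 h arrays, 37.8 and 54.6 in the 36 h arrays and 44 and 47.7 in the 48 h arrays (log2 difference -3.11 ± 0.66, adjusted p = 0.0206 for 36 h minus 12 h). Hmox1, heme oxygenase, had 987 and 4187 in the 12 h arrays, 435 and 90.3 in the 36 h arrays and 297 and 539.5 in the 48 h arrays (log2 difference -2.97 ± 0.63, adjusted p = 0.0206). Both 36 h arrays were under both 12 h arrays, and the second 12 h array was several times the first in each. Rab30, Crybb3, Ifrd1, Gpaa1, Rusc2, Tiparp and Cyp2b10 were lower than at 12 h, with differences between -3.07 and -2.25. Selenoh, a nuclear selenoprotein, had 28.4 and 23.3 in the 12 h arrays, 576 and 572 in the 36 h arrays and 1073 and 1914 in the 48 h arrays, and was at least 4.81-fold higher at 36 h than at 12 h (adjusted p = 0.00106). Neither 12 h array of it was above background. Against 48 h, the adaptor of melanocortin receptors Mrap was higher (log2 difference 1.97 ± 0.35, adjusted p = 0.0329), and Hsd3b1, a steroid dehydrogenase, lower (log2 difference -2.21 ± 0.42, adjusted p = 0.0449).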

How the data were processed

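The deposited table holds 1 linear intensity for each of 22690 probe sets and 14 arrays, per the labels from biotin-labelled total RNA, and no source used here gives the software that made them. The design text names GeneSpring 7.2 for the selection of genes by the submitters. Each array had a mean near 500 once the highest and lowest 2% of values were left out, so the deposited scaling was kept. Groups came from the labels.

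In R 4.3.3, limma 3.58.1 (lmFit and eBayes) was fitted to log2(intensity + 57), the 25th percentile of all values, over all 14 arrays in 7 groups, for 13576 probe sets with a mean of at least 128.8 (the 40th percentile), after 64 control probe sets were left out. P-values were adjusted by Benjamini and Hochberg over all tested probe sets, with a threshold of 0.05. The prior degrees of freedom were 5.08 and the residual 7. On each array the 95th percentile over the 27 bacterial controls served as background, and where neither array of a side exceeded it a fold is a bound. The number of arrays limits the precision. Genes are given by their brightest probe set. GEO's platform annotation named 20380 probe sets with 1 gene, 691 with several and 1555 with none, and 20351 of those with 1 gene matched RefSeq.

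The comparison, the 56 gene lists and the tests were chosen with earlier results of these data known, and the pancreas and muscle lists were written after these data had been seen. The naming rule took the 15 largest rises and the 15 largest falls against normal liver, and up to 8 called genes of each list or else its smallest p. It also took 28 landmark genes and the 10 largest differences each way from 12 h and 48 h. Not every gene it took is printed, such as Ect2 of the spindle list and Alas2 of the erythroid list. The 15 and 10 largest were taken among called genes whose arrays did not overlap and whose brighter group had a mean of at least 402.8. Genes named as missing the threshold that are no landmark, and Cpa1, Socs3, Pttg1, Cyp2d22 and Cyp2d26, were picked after their values were seen. Alternatives covered scaling, pseudocount, filter, prior variance, array weights, the replicate number, probe sets per gene and left-out arrays. The fit was tested on simulated data.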

Additional observations from a re-analysis of the deposited data

Results flagged for a closer look

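Of the 168 genes that the naming rule took from any of the 3 comparisons and that passed against normal liver, 49 also differed from 12 h and 22 from 48 h, and 14 differed from both in the limma fit (adjusted p between 7.4e-05 and 0.0425). All values are differences of 36 h on the log2 scale, the comparisons share the 36 h arrays, and for genes below background at 12 h or in normal liver the fitted value depends on the pseudocount. Of the 20 largest differences from 48 h that were named, 7 passed without the first 48 h array and 0 without the second, and over all probe sets the 63 calls against 48 h were 1 without the second 36 h array and 3 without the second 48 h array.

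Above 12 h and below 48 h were genes of mitosis. Birc5, survivin, differed by 2.78 from 12 h, by -1.65 from 48 h and by 2.98 from normal liver. Ccnb2, cyclin B2, differed by 1.99 from 12 h, by -1.91 from 48 h and by 1.68 from normal liver. Cdc20, the anaphase activator, differed by 1.78 from 12 h, by -2.53 from 48 h and by 1.52 from normal liver. Cdca3, a mitotic entry factor, differed by 1.56 from 12 h, by -1.97 from 48 h and by 2.31 from normal liver. Cdk1, the mitotic kinase, differed by 3.20 from 12 h, by -1.56 from 48 h and by 2.54 from normal liver. Stmn1, a microtubule-destabilising protein, differed by 1.98 from 12 h, by -1.61 from 48 h and by 1.54 from normal liver. Ube2c, the ubiquitin-conjugating enzyme of anaphase, differed by 2.89 from 12 h, by -2.32 from 48 h and by 3.08 from normal liver.

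Above both neighbouring times were genes of cholesterol synthesis and others. Cd24a, a surface glycoprotein, differed by 1.65 from 12 h, by 1.84 from 48 h and by 1.58 from normal liver. Cyp51, lanosterol demethylase, differed by 2.07 from 12 h, by 1.85 from 48 h and by 0.97 from normal liver. Dbp, a clock output factor, differed by 1.40 from 12 h, by 1.68 from 48 h and by 2.38 from normal liver. Idi1, isopentenyl diphosphate isomerase, differed by 2.37 from 12 h, by 1.88 from 48 h and by 1.15 from normal liver.

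The remaining genes were below 12 h. Car3, carbonic anhydrase 3, differed by -1.82 from 12 h, by -1.16 from 48 h and by -2.27 from normal liver. Cidec, a lipid droplet protein, differed by -1.53 from 12 h, by 2.44 from 48 h and by 2.91 from normal liver. Il1r1, the interleukin 1 receptor, differed by -2.18 from 12 h, by 1.65 from 48 h and by 1.62 from normal liver.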

How the results depend on the processing

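Against normal liver the count of 566 probe sets was 160 from the 4 arrays alone, 81 without the 4 arrays of low control ratio, 954 by a 2-fold rule with no test, and 124 to 513 with 1 array left out. Against 12 h the count of 597 was 0 from the 4 arrays alone (limma, with 2183 at an unadjusted p under 0.05 and a smallest adjusted p of 0.072), 17 without the arrays of low control ratio, 1050 by the 2-fold rule and 195 to 1040 with 1 array left out. Against 48 h the count of 63 was 38 and 120 with the pseudocount divided and multiplied by 4, 1 from the 4 arrays alone, 1 without the arrays of low control ratio, 406 by the 2-fold rule and 1 to 80 with 1 array left out. Fits with fewer arrays have fewer degrees of freedom by construction, and the cause of the other shifts was not tested. In the other alternatives the counts stayed within 1.5 times. Of the 162 named genes that passed against normal liver, 143 passed with the arrays of low control ratio as a block. In every alternative 31 passed, and all 162 kept their sign with that block. They also kept it without those arrays, which is no test. Only the first 36 h array is then left, and called genes have the same sign in both 36 h arrays. Signs turned only for genes that had not passed, each with 1 array left out. For called genes, whose arrays do not overlap, leaving out 1 array of the compared groups could not turn the sign. Foxm1 then ranged from -0.35 to 0.87 (-0.030 without the first 36 h array, -0.35 without the second normal array), Igfbp1 from -0.49 to 0.067 (the positive value without the first 36 h array), Cyp7a1 from -0.040 to 0.23 and Jun from -0.54 to 0.0042 (the negative value of Cyp7a1 and the positive one of Jun without the first normal array).

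With the replicate number as a block 617, 630 and 78 probe sets passed against normal liver, 12 h and 48 h, and 157 of the 162 named genes. The deviations of same-numbered arrays correlated at -0.17 between 36 h and normal liver and between -0.185 and 0.527 over all pairs of groups, 9 of 21 above 0.1. Those of 36 h correlated at 0.307, 0.16 and 0.232 with 8, 12 and 72 h, the times whose second arrays also had a low control ratio. The labels do not say what a number marks, and since not every pair of groups was above 0.1 the arrays were not treated as pairs.

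With 2 arrays per group, small differences mostly did not pass, and dim probe sets near background carry only bounds. Operation and time are not separable from the group.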

Other observations

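Several transcripts outside the gene groups also stood apart at 36 h. Lifr, the receptor of leukemia inhibitory factor, had 1120.4 and 847 at 36 h, against 4761 and 4169 in normal liver (log2 difference -2.13 ± 0.29, adjusted p = 0.00198). Pigr, which carries IgA into bile, had 2782 and 2400 at 36 h, against 10365 and 14698 in normal liver (log2 difference -2.23 ± 0.36, adjusted p = 0.00463). Both were several times lower in each 36 h array. Nat8f1, an acetyltransferase family member, had 1622 and 1293 at 36 h, against 7130.4 and 8809 in normal liver (log2 difference -2.41 ± 0.39, adjusted p = 0.00463), and Gadd45g, a stress gene, had 382 and 441 at 36 h, against 1756 and 2487 in normal liver (log2 difference -2.20 ± 0.41, adjusted p = 0.0107). Gadd45g was thus low at 36 h while its relative Gadd45b, high at 12 h, was near background at 36 h and in normal liver. Sucnr1, the succinate receptor, had 150.2 and 149 at 36 h, against 694 and 933 in normal liver (log2 difference -2.06 ± 0.30, adjusted p = 0.00288). The unnamed transcript 1810055G02Rik had 1464 and 1939 at 36 h, against 249 and 391 in normal liver (log2 difference 2.23 ± 0.28, adjusted p = 0.00114), and it was higher than at 48 h too (log2 difference 2.06 ± 0.28, adjusted p = 0.0088).

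Among the landmark genes, Igfbp1, a binding protein of insulin-like growth factors that responds early to hepatectomy, had 6196 and 9172 at 36 h, against 8926 and 8583 in normal liver (log2 difference -0.21 ± 0.48, adjusted p = 0.875), with overlapping groups. Prtn3, a granule protease of neutrophils, was lower than at 48 h (log2 difference -1.86 ± 0.29, adjusted p = 0.0132).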
